A study of Irpex lacteus with 9 samples.

Results

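The genes described here are the peroxisome genes of *Irpex lacteus* that lie outside fatty acid beta-oxidation. They are the genes that the deposited annotation places in the KEGG peroxisome pathway and not in the KEGG fatty acid degradation pathway, without those whose Swiss-Prot name is a superoxide dismutase, a catalase or a peroxiredoxin. A mean count of at least 10 over the 9 libraries was required, and 67 of the 75 genes chosen by annotation met it. They stand among 86 peroxisome pathway genes at the same minimum and 19212 genes in the deposited table. The choice used annotation and mean abundance, and no difference between groups.

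*I. lacteus* is a white-rot fungus, a wood-decay species able to attack lignin as well as plant polysaccharides. It was grown on wheat straw to which distilled water, a solution of ammonium chloride (NH4Cl) or a solution of sodium nitrate (NaNO3) was added, and polyadenylated RNA was sequenced in 3 libraries per group. The water group is the control of both salts. The strain, the amounts of salt and the length of the fermentation are not given in the sources used here, the design text names another fungus (*Tricholoma album*) where the title and the organism field name *I. lacteus*, and the labels do not say whether the libraries of a group came from separate fermentations, so p-values measure only the spread between these libraries.

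Peroxisomes are membrane-bound organelles that oxidise fatty acids, amino acids and other substrates and break down the hydrogen peroxide this releases. Their enzymes are made in the cytosol, bound by the receptors PEX5 or PEX7 through short targeting signals (PTS1 or PTS2), and passed across the membrane at a docking complex that contains PEX13 and PEX14. RING ubiquitin ligases and the ATPase PEX6 then take part in releasing the receptor for another round, while PEX3, PEX16 and PEX19 place membrane proteins and PEX11 acts in the elongation and division of the organelle. These assembly proteins are called peroxins. Their roles are known from yeasts, other fungi and animals, and gene names below follow the deposited annotation.

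The libraries held 17896230 to 23194078 counts. The 67 genes took between 0.265% and 0.277% of the counts in the water libraries, 0.229% to 0.244% with NH4Cl and 0.219% to 0.258% with NaNO3. Every water library held a higher share than every salt library. The 95% Wilson interval of the lowest share ran from 0.216% to 0.221%, and such intervals cover counting error only. The summed share of 20 cellulase genes was highest in 2 libraries, at 0.750% in NH4Cl replicate 3 and 0.128% in NaNO3 replicate 1, against 0.0176% to 0.0759% in the other 7. By this measure NaNO3 replicate 1 lay much nearer to the other 7 than NH4Cl replicate 3 did. Both are called the libraries that stood apart below. Their part in the results below was not tested, and counts are given with and without them. In bulk RNA, fewer cells that express a gene and less of its RNA per cell cannot be told apart.

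With nitrate, 9 of the 67 genes were lower than with water and none was higher. They were both PEX5 receptors, both PEX13 docking genes, the division gene PEX11, a carrier of the peroxisomal adenine nucleotide type, 2 D-amino-acid oxidases and a gene with a superoxide dismutase domain. Here a gene counts as higher or lower when its Benjamini-Hochberg (BH) adjusted p, from edgeR's quasi-likelihood test over all 14808 genes tested, is under 0.05. All 67 genes passed the filter on low counts. The 9 lower genes are 13.4% of the 67, while 3.88% of all tested genes were lower with NaNO3 and 1.18% were higher. At an unadjusted p under 0.05, 14 of the 67 were lower and 5 higher, where the background was 14.0% and 10.8%. The median log2 change of the 67 was -0.12, against -0.03 for all tested genes. Changes below 0 were found for 41 of the 67, and for 7792 of all 14808 tested genes. Without water replicate 1 the median of the 67 was -0.04. The 9 lower genes came from 6 of the 10 roles into which the 67 were sorted.

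Of the 13 peroxins, 5 were lower with NaNO3 and 0 were higher, their median log2 change was -0.43, and 12 of 13 changes were below 0. In most of the 19 alternative fits, DESeq2 among them, 11 of the 13 were below 0, and in the others 12 were. Of the other 54 genes, 4 were lower and 0 higher, with a median of -0.06. The lower peroxins were 2 of the 3 import receptors, 2 of the 3 docking genes and 1 of the 4 genes of membrane biogenesis and division. The RING gene and PEX6 did not pass.

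The count of 9 moved with single libraries. It was 3 without water replicate 1, 5 without NH4Cl replicate 2, 4 without NaNO3 replicate 1 (1 of them higher), and 0 when replicate 2 or 3 of water, or replicate 2 or 3 of NaNO3, was left out. The 5 lower peroxins became 2 in the fits without water replicate 1, NH4Cl replicate 2 or NaNO3 replicate 1, and 0 in the 4 fits in which none of the 67 passed. The share of all tested genes that passed in these fits without 1 library is not given here. The falls therefore cannot be read as particular to these genes. Without both libraries that stood apart, 6 of the 67 genes were lower (4 of them peroxins) and 2 were higher, and the background was 4.75% lower and 2.64% higher. DESeq2 called 11 lower and 3 higher, with 6.61% and 5.73% of all genes. The call counts with voom and library weights and with limma on log2(FPKM + 1) were 15 and 5, where 15.4% and 2.80% of all genes passed. In each of 19 alternative fits all 9 genes kept their direction, with an unadjusted p of at most 0.0116.

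**Figure D1:**
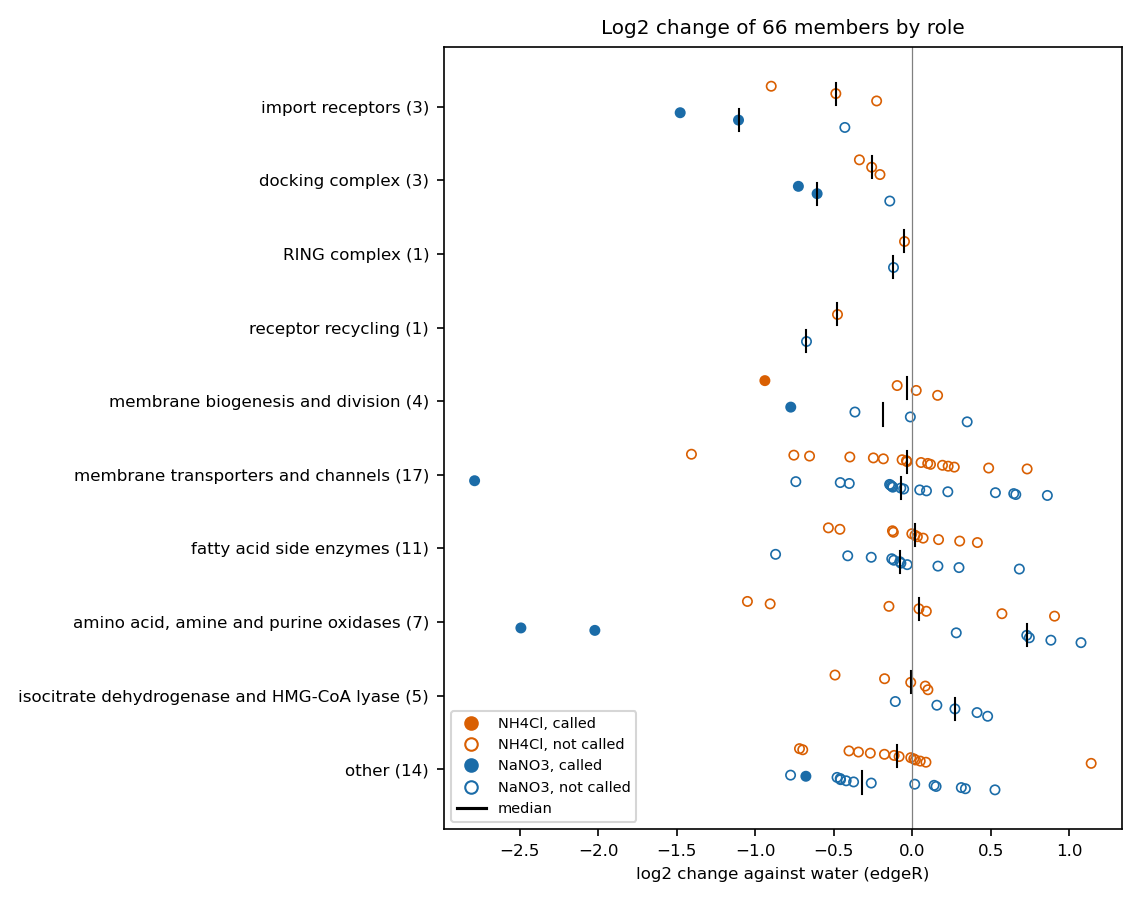
Each point is the log2 change of 1 gene against water from edgeR (x axis), with 66 of the 67 genes grouped by role (y axis, number of genes in parentheses), NH4Cl in orange and NaNO3 in blue, filled where the adjusted p is under 0.05, and a black bar at the median. The 9 filled NaNO3 points lie between -0.61 and -2.79, 5 of them in roles of the peroxins, and the points of most other roles spread around 0.

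PEX5, the receptor for the PTS1 signal that most peroxisomal matrix proteins carry, was annotated for 2 genes. BC629DRAFT_1436708 stood at 151, 148 and 158 CPM (counts scaled to library size by the TMM method) in the water libraries, at 119, 92.4 and 115 with NH4Cl, and at 80.5, 66.3 and 65.4 with NaNO3. Its 3 groups formed 3 separate steps, with water highest and NaNO3 lowest. The log2 change with NaNO3 was -1.11 ± 0.16 (SE; edgeR, BH-adjusted p = 0.0210), and that with NH4Cl was -0.49 ± 0.16 (edgeR, BH-adjusted p = 0.146).

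The second PEX5 gene, BC629DRAFT_1473385, had 86.3, 99.3 and 83.3 CPM with water, 58.1, 43.1 and 43.0 with NH4Cl, and 35.2, 27.5 and 33.7 with NaNO3. It showed the same 3 steps with no overlap between groups. Its log2 change was -1.48 ± 0.17 with NaNO3 (edgeR, BH-adjusted p = 0.0210) and -0.90 ± 0.17 with NH4Cl, where it missed the threshold (edgeR, BH-adjusted p = 0.0532). Without both libraries that stood apart the NH4Cl value was -0.81 (edgeR, BH-adjusted p = 0.0482).

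The first PEX5 gene had between 1.5 and 2.68 times the CPM of the second across the 9 libraries. Both fell with NaNO3 also in the authors' deposited table, by 1.08 and 1.45 on its log2 scale, where they passed that table's limits of a false discovery rate of 0.01 and a fold of 2. The values of that table, here and below, come from the same 9 libraries and are not independent support. Their sign was set, for each comparison as a whole, by correlation with the DESeq2 fit used here. Whether the 2 genes share sequence to which reads could map equally was not checked, since no genome was used here, and the same holds for every pair of like-named genes below.

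PEX7, the receptor for the PTS2 signal, was annotated for 1 gene, BC629DRAFT_1292202. Its values were 9.12, 12.4 and 13.9 CPM with water, 7.50, 14.1 and 8.64 with NH4Cl, and 5.69, 9.91 and 10.7 with NaNO3. The groups overlapped in both comparisons, and the log2 change with NaNO3 was -0.43 ± 0.31 (edgeR, BH-adjusted p = 0.430).

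PEX13, a membrane protein of the docking complex, was also annotated for 2 genes. BC629DRAFT_1260422 had 29.7, 28.5 and 33.8 CPM with water, 24.4, 24.5 and 23.9 with NH4Cl, and 15.8, 21.1 and 18.8 with NaNO3. BC629DRAFT_642101 had 24.4, 24.1 and 27.6 CPM with water, 22.7, 21.4 and 19.6 with NH4Cl, and 15.1, 17.96 and 17.0 with NaNO3. In both genes every NaNO3 library lay below every NH4Cl library, and every NH4Cl library below every water library.

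The log2 change with NaNO3 was -0.73 ± 0.14 for BC629DRAFT_1260422 (edgeR, BH-adjusted p = 0.0295) and -0.61 ± 0.13 for BC629DRAFT_642101 (edgeR, BH-adjusted p = 0.0377). With NH4Cl the changes were -0.34 ± 0.14 and -0.26 ± 0.13, with adjusted p of 0.240 and 0.320. The ratio of the first gene to the second stayed between 1.05 and 1.22 in all 9 libraries, a narrower range than that of the PEX5 pair. Without both libraries that stood apart, BC629DRAFT_642101 missed the threshold with NaNO3 (log2 change -0.52, edgeR, BH-adjusted p = 0.0567).

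PEX14, the partner of PEX13 in docking, lay at 4.34 to 5.55 CPM with water, 3.75 to 4.84 with NH4Cl and 4.28 to 4.84 with NaNO3 (BC629DRAFT_1436161). Its log2 changes were -0.21 ± 0.17 with NH4Cl and -0.14 ± 0.17 with NaNO3, and neither passed (edgeR, BH-adjusted p = 0.558 and 0.641). Its groups overlapped, unlike those of the PEX13 genes. Another gene with a Pex14 domain, BC629DRAFT_1526919, lies outside the KEGG pathway list and did not pass against water. It had 7.66 to 11.6 CPM with water, 7.46 to 9.20 with NH4Cl and 8.32 to 8.84 with NaNO3.

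Downstream of docking, PEX2, a RING ubiquitin ligase that marks the receptor for release, had 16.5, 15.4 and 18.8 CPM with water, 17.1, 16.7 and 15.1 with NH4Cl, and 15.8, 15.4 and 15.2 with NaNO3 (BC629DRAFT_1598479). All 9 values lay within the range of the water libraries or just under it, and the log2 change with NaNO3 was -0.13 ± 0.13 (edgeR, BH-adjusted p = 0.569). PEX10, another RING ligase, was below the minimum with a mean count of 7.67 (BC629DRAFT_1281873), as was a second PEX2 gene with 0.556 (BC629DRAFT_1716611).

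PEX6 is a recycling ATPase that takes part in pulling the receptor out of the membrane. PEX6 (BC629DRAFT_1589830) had 15.9, 15.0 and 16.9 CPM with water, 13.9, 9.51 and 10.8 with NH4Cl, and 10.9, 9.46 and 9.47 with NaNO3. Both salts lay below water in every library, but the log2 changes of -0.48 ± 0.16 and -0.68 ± 0.16 did not pass (edgeR, BH-adjusted p = 0.168 and 0.0517), and with DESeq2 the NaNO3 value did (BH-adjusted p = 0.0158).

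**Figure D2:**
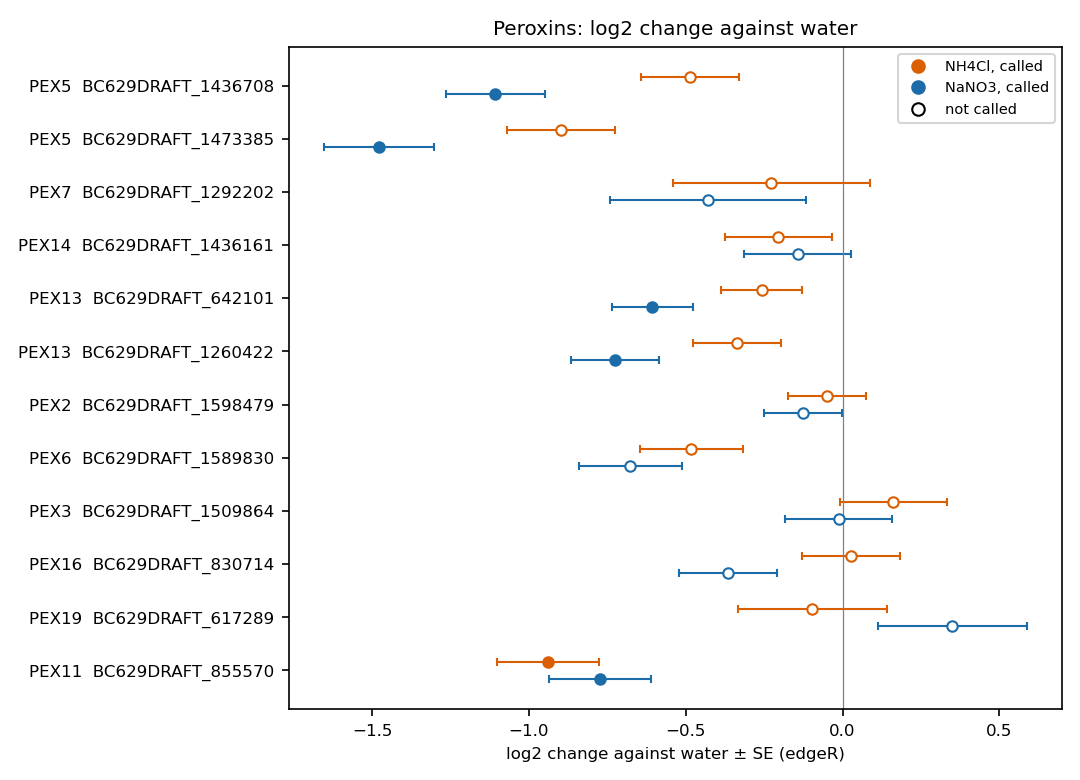
The log2 change against water ± SE from edgeR (x axis) is shown for 12 of the 13 peroxins (y axis), NH4Cl in orange and NaNO3 in blue, filled where the adjusted p is under 0.05. Both PEX5 genes, both PEX13 genes and PEX11 are filled for NaNO3, PEX11 alone is filled for NH4Cl, and PEX19 at 0.35 is the one NaNO3 value above 0 among those shown.

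PEX11 was the most abundant peroxin per length and the only one of the 67 genes that was lower with both salts. BC629DRAFT_855570 stood at 176, 181 and 205 CPM with water, at 117, 89.9 and 85.8 with NH4Cl, and at 111, 113 and 104 with NaNO3. The NH4Cl and NaNO3 ranges overlapped and both lay below the water libraries. The log2 change was -0.94 ± 0.16 with NH4Cl (edgeR, BH-adjusted p = 0.0466) and -0.77 ± 0.16 with NaNO3 (edgeR, BH-adjusted p = 0.0371).

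Another 3 genes with a PEX11 domain lie outside the KEGG pathway list and did not pass in either comparison with water. NewGene_1430 changed by a log2 of -0.25 ± 0.21 with NH4Cl and 0.47 ± 0.21 with NaNO3. The values of BC629DRAFT_1594111 were 0.19 ± 0.14 and 0.20 ± 0.14, and those of BC629DRAFT_1724960 were -0.07 ± 0.23 and 0.32 ± 0.23. The PEX11 gene of the pathway list was thus the one of 4 with that domain that passed against water, and the other 3 were named after their values were seen.

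PEX3, PEX16 and PEX19, which insert membrane proteins, did not pass in any comparison. PEX3 (BC629DRAFT_1509864) lay at 51.2 to 57.5 CPM with water, 60.0 to 65.3 with NH4Cl and 42.1 to 65.1 with NaNO3. PEX16 (BC629DRAFT_830714) had 119, 140.2 and 143 CPM with water, 149, 145 and 115 with NH4Cl and 97.2, 109 and 106 with NaNO3. All its NaNO3 libraries lay below all others, with a log2 change of -0.37 ± 0.16 (edgeR, BH-adjusted p = 0.191). PEX19 (BC629DRAFT_617289) had 15.8 CPM in NaNO3 replicate 1, a library that stood apart, and 7.63 to 9.90 in the other 8 libraries.

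Among the 17 genes of membrane transporters and channels, 1 was lower with NaNO3 and none was higher. BC629DRAFT_1517732 has a mitochondrial carrier domain and the KEGG label of the peroxisomal adenine nucleotide carrier, which in yeast brings ATP into the organelle for the activation of fatty acids. It had 182, 256 and 202 CPM with water, 150.4, 49.0 and 42.1 with NH4Cl, and 31.0, 32.7 and 28.9 with NaNO3. NaNO3 libraries were close to each other and all below the rest, while NH4Cl replicate 1 lay near water and the other NH4Cl libraries near NaNO3.

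This carrier had the largest fall of the 67 genes, a log2 change of -2.79 ± 0.47 with NaNO3 (edgeR, BH-adjusted p = 0.0222). With NH4Cl it was -1.41 ± 0.44 (edgeR, BH-adjusted p = 0.142), and without NH4Cl replicate 1 it was -2.20 (edgeR, BH-adjusted p = 0.0183). The authors' deposited table gives it a log2 change of -2.76 with NaNO3, past the limits of that table. The other carriers with the same KEGG label did not pass. BC629DRAFT_1515156 changed by -0.40 ± 0.19 with each salt, and BC629DRAFT_1435066 by -0.25 ± 0.50 with NH4Cl and 0.53 ± 0.50 with NaNO3, its highest values being 78.1 CPM in NaNO3 replicate 1 and 48.4 in NH4Cl replicate 3, the libraries that stood apart.

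Neither of 2 genes for the long-chain fatty acid ABC transporter passed, with log2 changes of 0.12 ± 0.16 (BC629DRAFT_1276598) and -0.18 ± 0.11 (BC629DRAFT_1491874) with NH4Cl and -0.12 ± 0.16 and 0.09 ± 0.11 with NaNO3. The transporter role also holds 8 genes that carry the KEGG label of PEX3, of which 6 have a Pfam domain of the major facilitator superfamily (MFS) and 2 have no Pfam domain. None of the 8 passed in any comparison, and the MFS gene with the lowest unadjusted p, BC629DRAFT_1617888, had 8.10, 5.35 and 6.76 CPM with water and 4.43, 3.59 and 3.96 with NH4Cl (log2 change -0.75 ± 0.21; edgeR, BH-adjusted p = 0.112). Without these 8, the 9 lower genes are 15.3% of 59.

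The 7 oxidases and aminotransferases of amino acids split by direction under NaNO3. D-amino-acid oxidase, which turns D-amino acids into keto acids and releases ammonia and hydrogen peroxide, was annotated for 5 genes, of which 2 were lower with NaNO3. BC629DRAFT_1499854 had 73.8, 65.3 and 52.6 CPM with water, 58.9, 15.5 and 18.2 with NH4Cl, and 11.5, 8.78 and 13.8 with NaNO3. BC629DRAFT_219106 had 18.4, 12.5 and 13.5 CPM with water, 14.8, 3.59 and 5.33 with NH4Cl, and 3.73, 3.38 and 3.79 with NaNO3. In both, NH4Cl replicate 1 lay in or near the water range and the other NH4Cl libraries close to NaNO3, as for the carrier.

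The log2 change with NaNO3 was -2.49 ± 0.49 for BC629DRAFT_1499854 (edgeR, BH-adjusted p = 0.0312) and -2.02 ± 0.47 for BC629DRAFT_219106 (edgeR, BH-adjusted p = 0.0465). With NH4Cl neither passed, at -1.05 ± 0.47 and -0.91 ± 0.45 (edgeR, BH-adjusted p = 0.272 and 0.321), but without NH4Cl replicate 1 both did, at -1.89 and -1.70 (edgeR, BH-adjusted p = 0.0223 and 0.0307). Without both libraries that stood apart, BC629DRAFT_219106 missed the threshold with NaNO3 (edgeR, BH-adjusted p = 0.0642). The authors' deposited table has both past its limits with NaNO3, with log2 changes of -2.47 and -2.0.

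The remaining 5 genes of this role had NaNO3 values above 0 and none passed in edgeR. DESeq2 called 3 of the 5 higher with NaNO3, which were its only higher calls among the 67 genes: BC629DRAFT_1288702, BC629DRAFT_1285830 and BC629DRAFT_453275 (DESeq2, BH-adjusted p = 0.0395, 0.0276 and 0.0270). The most abundant D-amino-acid oxidase per length, BC629DRAFT_1288702, had 38.4, 33.6 and 28.7 CPM with water, 44.7, 58.6 and 46.3 with NH4Cl, and 53.5, 76.1 and 39.2 with NaNO3. Every salt library lay above every water library, and the log2 changes were 0.57 ± 0.25 and 0.75 ± 0.25 (edgeR, BH-adjusted p = 0.254 and 0.112). BC629DRAFT_1285830 had 6.16, 3.20 and 4.81 CPM with water and 7.56, 7.10 and 11.5 with NaNO3, a log2 change of 0.88 ± 0.27 (edgeR, BH-adjusted p = 0.0920).

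L-pipecolate oxidase (BC629DRAFT_453275), named for an enzyme that oxidises an intermediate of lysine breakdown, had 13.99, 12.2 and 13.6 CPM with water, 29.7, 27.6 and 17.2 with NH4Cl, and 15.2, 40.8 and 27.8 with NaNO3. Its salt libraries all lay above water, and its lowest salt values were those of the 2 libraries that stood apart. The log2 changes were 0.91 ± 0.34 and 1.08 ± 0.34 (edgeR, BH-adjusted p = 0.198 and 0.102). Without those 2 libraries they were 1.13 and 1.39, and both passed (edgeR, BH-adjusted p = 0.0261 and 0.0221).

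Alanine-glyoxylate aminotransferase (BC629DRAFT_1578466), which moves an amino group from alanine to glyoxylate, had 25.2, 20.1 and 19.7 CPM with water, 28.9, 22.8 and 15.2 with NH4Cl and 44.6, 34.0 and 29.1 with NaNO3. The NaNO3 libraries lay above all others, and the log2 change against water was 0.73 ± 0.25 (edgeR, BH-adjusted p = 0.125). The last D-amino-acid oxidase, BC629DRAFT_1596402, changed by 0.09 ± 0.15 with NH4Cl and 0.28 ± 0.15 with NaNO3.

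**Figure D3:**
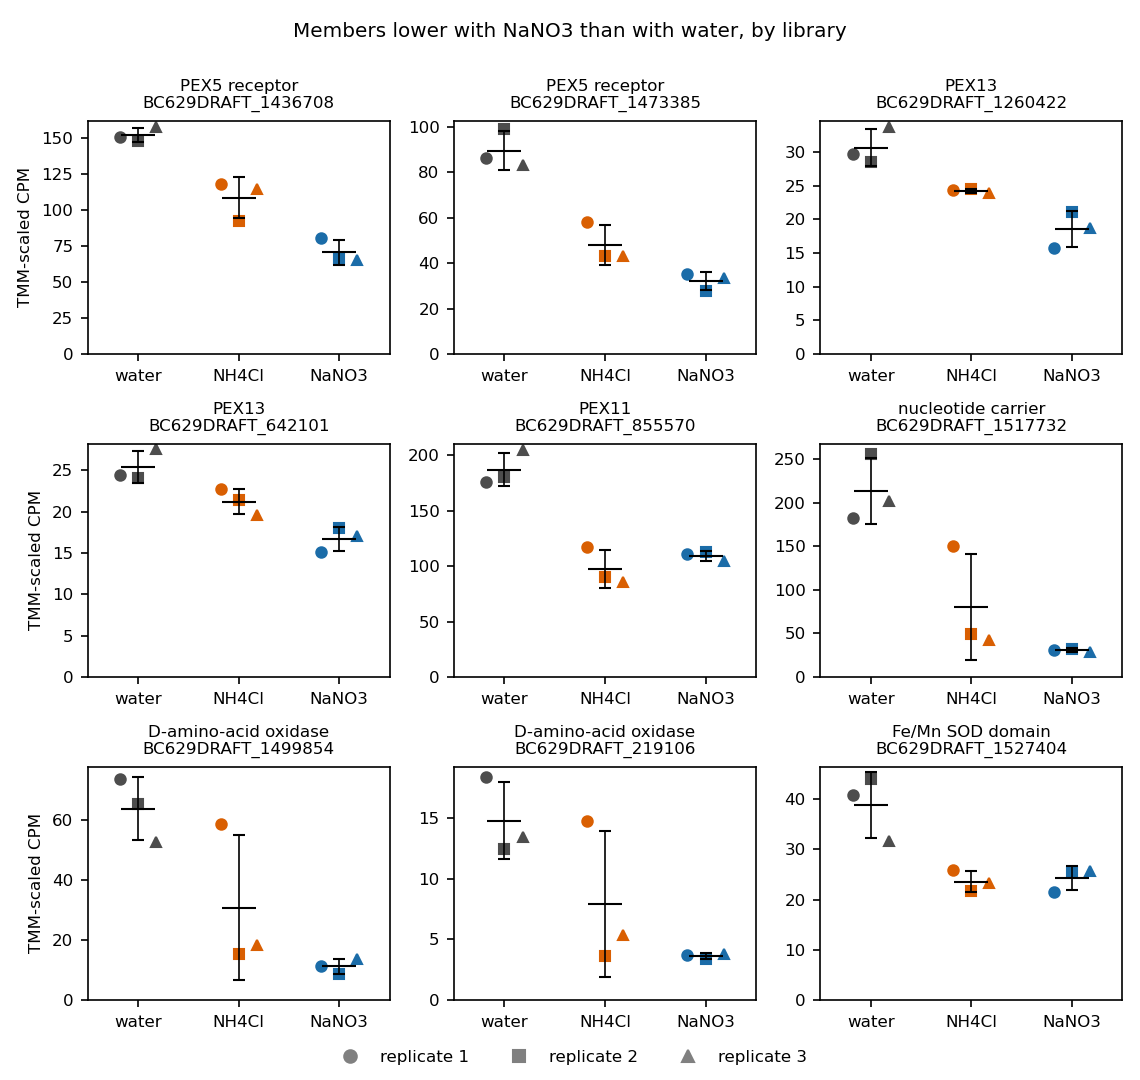
TMM-scaled CPM (y axes from 0) is shown for the 9 genes lower with NaNO3, by group (x axes) and library, with horizontal bars at the mean and error bars of 1 SD (n = 3 per group). The NaNO3 points lie below all water points in each panel, and NH4Cl replicate 1 is the highest NH4Cl library in 8 of the 9.

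The place of the NH4Cl libraries among these 9 genes can be read from the plot by library. The NH4Cl mean lay between those of water and NaNO3 for 7 genes, and all NH4Cl libraries lay below all water libraries for 7. The 9 genes were chosen as low with NaNO3 against the same water libraries, and that choice favours such positions. Of all 14808 tested genes, 2388 had all NH4Cl libraries below all water libraries. NH4Cl replicate 1 was the highest library of its group for 8 of the 9 genes. How often that held among all tested genes is not given here. The comparisons with water share the water libraries, so their values are given side by side and are not independent of each other.

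The 11 enzymes of fatty acid metabolism in the set, among them a thiolase, gave no call in any comparison in edgeR. At an unadjusted p under 0.05 with NaNO3, 0 of them were higher and 1 was lower. DESeq2 called that 1 with NaNO3, and SPS19 between the salts. The former is the acyl-CoA thioesterase BC629DRAFT_858597, which by its KEGG label frees fatty acids from coenzyme A, at 27.0, 31.1 and 33.2 CPM with water, 24.6, 20.7 and 17.7 with NH4Cl and 13.6, 21.96 and 14.4 with NaNO3. Its water libraries lay above all salt libraries, and the NaNO3 log2 change was -0.87 ± 0.21 (edgeR, BH-adjusted p = 0.0532; DESeq2, BH-adjusted p = 0.0118).

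The 2,4-dienoyl-CoA reductase SPS19 (BC629DRAFT_1580384), which prepares unsaturated fatty acids for beta-oxidation, was the most abundant of the 67 genes per length. It had 307, 282 and 346 CPM with water, 371, 410.2 and 373 with NH4Cl and 297, 277 and 315 with NaNO3. The NH4Cl libraries lay above all others, with a log2 change of 0.30 ± 0.16 against water (edgeR, BH-adjusted p = 0.341). NaNO3 and water overlapped, at -0.07 ± 0.16. The remaining enzymes of the role, among them dienoyl-CoA isomerases, phytanoyl-CoA dioxygenases and carnitine acetyltransferases, had NaNO3 log2 changes between -0.41 and 0.68.

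The 5 genes labelled isocitrate dehydrogenase or HMG-CoA lyase gave no call in any comparison by edgeR or DESeq2, and 0 of them had an unadjusted p under 0.05. NADP isocitrate dehydrogenase supplies the NADPH that the dienoyl-CoA reductase uses, and its Swiss-Prot name here is that of the mitochondrial form. BC629DRAFT_1502648 lay at 82.4 to 95.9 CPM with water, 63.3 to 104 with NH4Cl and 81.7 to 126 with NaNO3. NewGene_2378, the other gene of this enzyme, lay at 45.3 to 56.6, 38.3 to 74.4 and 65.0 to 73.8. All NaNO3 libraries of NewGene_2378 were above all water libraries, with a log2 change of 0.48 ± 0.23 (edgeR, BH-adjusted p = 0.243).

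Of the 14 remaining genes (Nudix hydrolases, epoxide hydrolases and genes with an antioxidant annotation), 1 was lower with NaNO3. BC629DRAFT_1527404 has the C-terminal domain of iron or manganese superoxide dismutases, enzymes that turn superoxide into hydrogen peroxide, and no Swiss-Prot name, so it is in the set. It had 40.8, 44.1 and 31.6 CPM with water, 25.8, 21.8 and 23.2 with NH4Cl and 21.5, 25.6 and 25.7 with NaNO3. Both salts lay below water and overlapped each other. The log2 change was -0.68 ± 0.16 with NaNO3 (edgeR, BH-adjusted p = 0.0479) and -0.72 ± 0.16 with NH4Cl (edgeR, BH-adjusted p = 0.0698), and without both libraries that stood apart the NaNO3 value also missed the threshold (edgeR, BH-adjusted p = 0.0814).

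Pmp20 (BC629DRAFT_1630273), a redoxin-domain protein known in the yeast *Candida boidinii* as a peroxidase of the peroxisome, was the second most abundant gene per length. It had 237, 227 and 185 CPM with water, 181, 189 and 169.8 with NH4Cl and 211, 389 and 335 with NaNO3. NaNO3 replicate 1 lay within the water range and the other NaNO3 libraries above it. The log2 change with NaNO3 was 0.53 ± 0.23 (edgeR, BH-adjusted p = 0.204), and without both libraries that stood apart it was 0.76 (edgeR, BH-adjusted p = 0.0320).

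With ammonium, 1 of the 67 genes was lower than with water and none was higher, the lower one being PEX11. That is 1.49% of the 67, where 0.398% of all tested genes were lower with NH4Cl and 0.277% were higher, so a count of 1 says little about the set. At an unadjusted p under 0.05, 10 genes were lower and 2 higher, or 14.9% and 2.99%, against 11.0% and 7.77% of all tested genes. The median log2 change was -0.05 for the 67, -0.23 for the 13 peroxins and -0.02 for all tested genes. Without NH4Cl replicate 1 the peroxin median was -0.08. With DESeq2, 4 genes were lower and 0 higher (4.63% and 4.07% of all genes), namely PEX11, PEX5 (BC629DRAFT_1473385), the nucleotide carrier and the gene with the superoxide dismutase domain.

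The PEX11 call with NH4Cl also depended on single libraries. The count of 1 became 0 without water replicate 1, 2 or 3, NH4Cl replicate 2 or 3, or NaNO3 replicate 2 or 3. It became 2 without NaNO3 replicate 1 and 5 without NH4Cl replicate 1, the 5 being PEX11, PEX5 (BC629DRAFT_1473385), the carrier and the 2 D-amino-acid oxidases. For these fits too, the share of all tested genes that passed is not given here. Without both libraries that stood apart it was 3, with PEX11 and PEX5 lower and L-pipecolate oxidase higher, where 3.21% of all genes were lower and 1.92% higher. With voom 8 genes passed and with limma on log2(FPKM + 1) 0 did, against 13.0% and 0.513% of all genes.

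Ammonium and nitrate were compared directly to ask whether the salts differed from each other. By edgeR, 0 of the 67 genes passed in this comparison, where 1.09% of all tested genes did. At an unadjusted p under 0.05, 9 were higher with NH4Cl and 5 were lower, against 10.9% and 10.2% of all genes. By DESeq2 (4.98% of all genes higher, 5.06% lower), 5 were higher (both PEX5 genes, the nucleotide carrier, the D-amino-acid oxidase BC629DRAFT_1499854 and SPS19) and 2 were lower (Pmp20 and the D-amino-acid oxidase BC629DRAFT_1285830). The median log2 difference, NH4Cl against NaNO3, was 0.04 for the 67 genes and 0.02 for all tested genes. With voom 2 genes passed and with limma on log2(FPKM + 1) 0 did, against 7.19% and 0.804% of all genes.

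The differences nearest the threshold were the following. The PEX5 gene BC629DRAFT_1436708 stood 0.62 ± 0.16 higher on the log2 scale with NH4Cl than with NaNO3 (edgeR, BH-adjusted p = 0.0854), and BC629DRAFT_1473385 stood 0.58 ± 0.17 higher (adjusted p = 0.114), with no overlap of the groups in either. BC629DRAFT_1285830 differed by -1.03 ± 0.27 (adjusted p = 0.0908) and Pmp20 by -0.79 ± 0.23 (adjusted p = 0.111). The carrier differed by 1.38 ± 0.44 (adjusted p = 0.132) and the D-amino-acid oxidase BC629DRAFT_1499854 by 1.44 ± 0.48 (adjusted p = 0.139), and both values rest in part on NH4Cl replicate 1, without which they were 0.55 and 0.56. Of the 13 peroxins, 10 were above 0, with a median of 0.20 (0.32 without NH4Cl replicate 3 and 0.31 without NaNO3 replicate 1), and PEX11 was below, at -0.16 ± 0.16. Among all 14808 tested genes, 7691 were above 0 in this comparison. Without both libraries that stood apart, PEX5 (BC629DRAFT_1436708) passed as higher with NH4Cl (log2 difference 0.68) and Pmp20 as lower (-0.97), with BH-adjusted p of 0.0491 and 0.0236 from edgeR, where 1.91% of all genes were higher and 3.52% lower.

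Groups that do not overlap were about as common among the 67 genes as among all genes. In NaNO3 against water the groups were apart for 35.8% of the 67, with 17 genes lower and 7 higher, and for 33.0% of all genes tested (18.8% lower and 14.2% higher). The shares for NH4Cl against water were 29.9% and 28.0%, and for NH4Cl against NaNO3 they were 19.4% and 25.2%. Among the 13 peroxins, 7 were apart and lower with NaNO3 and 0 apart and higher.

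Levels between genes were compared per length, as FPKM averaged over the 9 libraries. They ran from 0.372 to 348 with a median of 11.2, against a median of 8.40 for all tested genes. SPS19 (348 FPKM) and Pmp20 (232) led, followed by PEX11 (93.6), PEX16 (65.3), the epoxide hydrolase NewGene_397 (62.9), the nucleotide carrier (60.2) and PEX5 BC629DRAFT_1436708 (56.9). The peroxins spanned 1.06 (PEX14) to 93.6 FPKM, with a median of 13.4. On this ranking, 3 of the 10 and 4 of the 20 most abundant genes were among the 9 lower with NaNO3. That mean includes the NaNO3 libraries. Ranked by mean FPKM in the water libraries alone, the counts were 3 of 10 and 7 of 20.

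**Figure D4:**
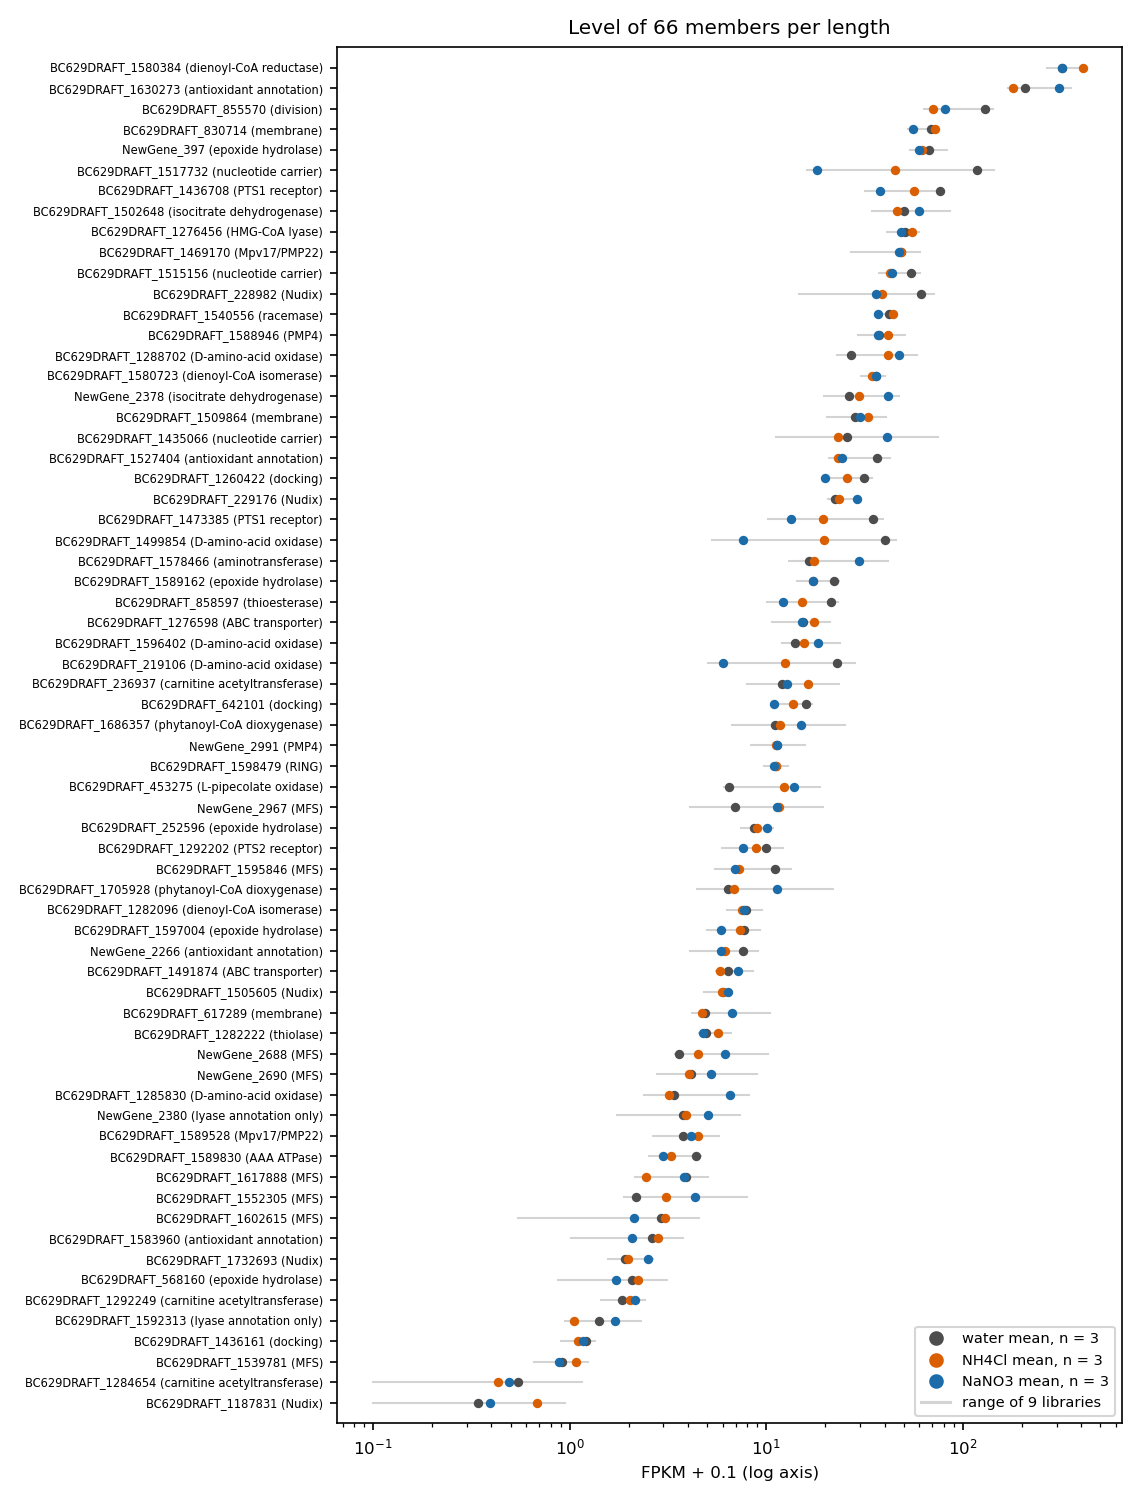
Mean FPKM plus 0.1 per group (coloured points, n = 3) and the range of the 9 libraries (grey lines) are shown on a log x axis for 66 of the 67 genes, ordered by mean level on the y axis with a short label of their role. SPS19 and Pmp20 stand highest at 348 and 232 FPKM, and the carrier and the D-amino-acid oxidases BC629DRAFT_1499854 and BC629DRAFT_219106 show wide gaps between water and NaNO3.

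The genes nearest the minimum mean count of 10 were BC629DRAFT_1187831, a Nudix gene with a mean count of 10.9, and BC629DRAFT_1284654, a carnitine acetyltransferase gene with 16.1, on the inside. On the outside PEX10 was nearest, and 4 of the 8 genes below the minimum had 0 counts in every library. Some labels and domains differ: 2 genes carry the label of HMG-CoA lyase without a lyase domain, and 1 with the label of superoxide dismutase has a haloacid dehalogenase domain. None of these 3 passed.

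The rest of the KEGG peroxisome pathway gave other counts. Of the 14 genes also in the fatty acid degradation pathway, 8 were lower with NaNO3 and 1 with NH4Cl, where 3.88% and 0.398% of all tested genes were. The median log2 changes of the 14 were -0.78 and -0.69. Most of the 14, and most of their lower calls with NaNO3, carry the KEGG label of long-chain acyl-CoA ligase. Some of these have a FAD-binding domain or no Pfam domain. With NaNO3 the acyl-CoA oxidase BC629DRAFT_1285252 (-0.41) and the thiolases BC629DRAFT_1627959 (-0.27) and BC629DRAFT_852320 (-0.46) did not pass by edgeR. The thiolase BC629DRAFT_1276227 (-0.98) and the isomerase BC629DRAFT_1587930 (-2.67) did. Of the 5 genes named superoxide dismutase, catalase or peroxiredoxin, 0 passed against water by edgeR (2 higher and 0 lower with NaNO3 by DESeq2, and 2 and 0 at an unadjusted p under 0.05), and 1 superoxide dismutase, BC629DRAFT_1599606, was lower with NH4Cl than with NaNO3 (log2 -1.53 ± 0.24; edgeR, BH-adjusted p = 0.0329). The counts are descriptions, and the difference between the lists was not tested.

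Outside the pathway, 21 further genes had an annotation naming the peroxisome or a peroxin, and of these 1 was higher and 2 were lower with NaNO3. Among all tested genes, 1.18% were higher and 3.88% lower. The higher gene and both lower genes of this list carry the same KEGG label, though their Pfam domains differ. The higher one, BC629DRAFT_1290732, changed by 1.26 ± 0.25 on the log2 scale and has an SBDS domain, and the lower ones were BC629DRAFT_1468135 with a RasGEF domain (-1.45 ± 0.23) and BC629DRAFT_1595001 with an AFG1-like ATPase domain (-1.03 ± 0.16), with edgeR BH-adjusted p of 0.0312, 0.0222 and 0.0221.

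**Figure D5:**
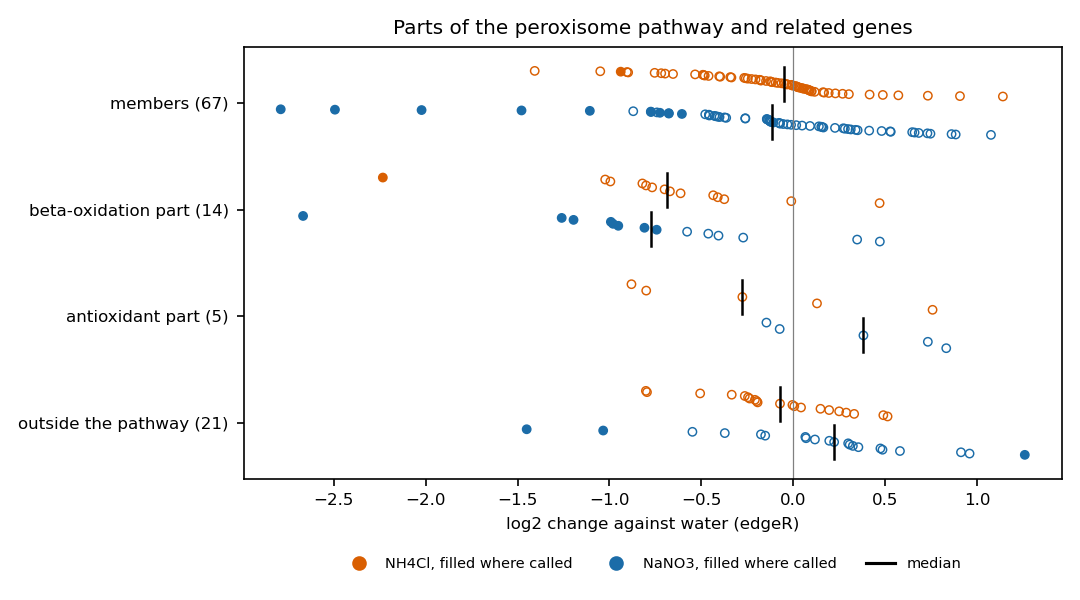
Log2 changes against water from edgeR (x axis) are shown for the 67 genes (members), the 14 pathway genes also in fatty acid degradation (labelled beta-oxidation part), the 5 antioxidant genes and 21 genes outside the pathway (y axis), NH4Cl in orange and NaNO3 in blue, filled where the adjusted p is under 0.05, with black bars at the medians. The 67 genes center near 0 with a tail below -0.6. The 14, most of them labelled acyl-CoA ligase, center at -0.69 and -0.78.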

How the data were processed

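Polyadenylated RNA from 9 libraries was analysed, 3 each with water, NH4Cl and NaNO3. HISAT2 and StringTie are the tools listed in the submitters' processing notes; versions, genome build and strand setting are not given in the sources used here. The authors deposited 1 table of whole-number counts and FPKM for each gene in each library, the counts being taken as raw, and, per the file headers, other columns with the authors' DESeq2 log2 fold changes and adjusted p-values. From the counts, edgeR 4.0.16 in R 4.3.3 (filterByExpr, TMM, glmQLFit, glmQLFTest, 1 fit of all 9 libraries, 3 contrasts, Benjamini-Hochberg over 14808 genes) gave log2 changes; the SE is the unshrunken log2 change divided by the square root of F. DESeq2 1.42.0 and limma 3.58.1 served as alternatives. The fit was also run on simulated data with a smaller spread than these libraries have, so that run does not show how well it performs here. No pair of libraries was identical. Roles come from the KEGG, Swiss-Prot and Pfam columns. Genes with values are those called (at most 12 per contrast by p), those of lowest unadjusted p until 8 where fewer than 6 were called, and the most abundant of each role except 1 peroxin, which is not reported here but stays in the counts and medians; other peroxins and genes completing a role were added after their values were seen. Members, lists and the 2 libraries that stood apart were chosen with earlier results of these data known. No sequence is shown.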

Additional observations from a re-analysis of the deposited data

How the results depend on the processing

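Each result was recomputed under 19 alternatives. Genes called in NaNO3 against water numbered 9 with edgeR, 14 with DESeq2, 5 with library totals only, 5 on the 2 groups compared, 5 with limma on FPKM at either pseudocount (1 or 0.1), 15 with voom and library weights, and 0 to 9 when 1 library was left out. In NH4Cl against water the count of 1 became 4 with DESeq2, 8 with voom, 3 without both libraries that stood apart, 0 with RLE factors, library totals only, no count filter, the 2 groups compared or limma at either pseudocount, and 0 to 5 when 1 library was left out. In NH4Cl against NaNO3 the count of 0 became 7 with DESeq2, 2 with voom and 2 without both libraries that stood apart, and was 0 whenever 1 library was left out. Shares of all tested genes are given above for main edgeR, DESeq2, voom, limma at pseudocount 1 and the fit without both libraries. For the other settings listed so far they are not given here, so those counts cannot be set against a background. The labels do not say whether replicate numbers pair the libraries. Deviations of same-numbered libraries from their group means correlated between -0.280 and 0.286. With 3 libraries a group, such values cannot decide whether a pairing exists. With the replicate block, 0 genes passed in NH4Cl against water and 0 in NaNO3 against water (17 at an unadjusted p under 0.05), and over all genes the block fit called 0, 0 and 3 in the 3 comparisons. The median log2 difference of NH4Cl against NaNO3 ranged from -0.032 (without NH4Cl replicate 1) to 0.15 when 1 library was left out, the highest value being without NH4Cl replicate 3, beyond the spread between replicates of 0.0860. The medians of the 67 genes in the other comparisons moved by less than the spread between replicates. The peroxin median ranged, when 1 library was left out, from -0.58 to -0.31 in NaNO3 against water, from -0.31 to -0.08 in NH4Cl against water and from 0.20 to 0.32 in NH4Cl against NaNO3. The named genes gave 25 results, of which 10 were called, each under 19 alternatives. Of these 475 gene results under an alternative, 349 kept their side of the threshold, 102 lost the call, 24 gained it and 0 changed direction. All 102 losses fall on the 10 called results, and the 349 include results that were never called. Among calls with NaNO3, both PEX5 genes and the carrier passed in 14 of 19 alternatives and the gene with the superoxide dismutase domain in 2; PEX11 with NH4Cl passed in 5. With 3 libraries a group, changes near these standard errors cannot be separated from replicate spread.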
